A study of Drosophila melanogaster with 9 samples.

Results

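The genes described here are 10 genes of the c-Jun N-terminal kinase (JNK) pathway, of the transcription factor AP-1, and of the transcriptional response to cell damage or neuronal activity. They are egr, bsk, puc, kay, Jra, Ets21C, Mmp1, Gadd45, Hr38 and sr. They were chosen by gene symbol and with earlier results of these data known. All 10 were found among the 17562 gene IDs of both deposited tables and passed the filter on low values. In flies, JNK signalling can start at the cell surface, among other ways, where the TNF-type ligand encoded by egr binds its receptors. It runs through a chain of kinases to bsk, the JNK itself. JNK phosphorylates Jun and Fos, encoded by Jra and kay, which together form AP-1. AP-1 then switches on genes of repair and stress, among them puc, a phosphatase that turns JNK off again. Hr38 and sr are the fly counterparts of the mammalian immediate early genes of the Nr4a and Egr families and are known as genes that neurons transcribe after firing.

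Poly(A) RNA was sequenced from brains dissected from adult females of Drosophila melanogaster aged 4 to 6 days, in 3 groups of 3 libraries. PGRP-LB Ecc15 brains came from PGRP-LB mutants infected by mouth with the bacterium Ecc15, WT Ecc15 brains from wild-type flies infected in the same way, and WT control brains from uninfected wild-type flies. The enzyme PGRP-LB breaks down peptidoglycan, a polymer of bacterial cell walls that triggers the Imd immune response of flies, and the study asks how peptidoglycan from bacteria alters brain gene expression. The infection lasted 16 h per the labels' protocols, while the design text speaks of a diet of 24 hours with sucrose as the control and with both genotypes on both diets. Each library is a pool of 20 brains, and the labels do not say whether the 3 pools of a group were reared and dissected separately, so p-values measure the spread between these pools. No uninfected mutant was analysed here, so for every difference between PGRP-LB Ecc15 and WT control the part of the genotype and the part of the infection cannot be told apart. In dissected tissue, fewer cells of a type and less RNA per cell cannot be told apart either.

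All values are counts that the authors had normalized before deposit, in 2 tables with a scaling of their own each, and rest on an estimated 19.4 to 30.7 M counted reads per library (M, mega). The neuronal gene elav and the glial gene repo, markers of brain tissue, were present, with 5901 to 7341 and 3865 to 4909 normalized counts in the PGRP-LB Ecc15 libraries, against 5457 to 6719 and 4186 to 4734 in the WT control libraries of the same table. The mutated gene PGRP-LB itself had 687, 1359 and 721 normalized counts in PGRP-LB Ecc15 and 164, 120 and 151 in WT control. In the other table it had 335, 261 and 224 in WT Ecc15 and 167, 122 and 154 in WT control, groups that did not overlap. There limma did not call it (adjusted p = 0.307), while the authors' deposited table did (adjusted p = 0.0134). The table columns spell the mutant PGRP-LBD, but the sources used here explain neither this name nor which part of the gene is changed. The PGRP-LB counts therefore do not check the genotype. The eye pigment transporter gene white (w) had 11962, 18926 and 11128 normalized counts in PGRP-LB Ecc15 against 5, 6 and 13 in WT control, so the mutant and wild-type flies also differed in the RNA of this gene, a common genetic marker. In WT Ecc15 w stayed at 4, 5 and 7 normalized counts.

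Between PGRP-LB Ecc15 and WT control brains, 5 of the 10 genes rose and 1 fell at a limma adjusted p under 0.05. The genes that rose were Ets21C (3.39-fold), Mmp1 (2.30-fold), sr (1.80-fold), kay (1.42-fold) and Jra (1.37-fold), and the gene that fell was egr (by 35.0%). Over all 13384 genes tested, 15.9% were called in either direction, 9.65% as higher and 6.26% as lower (1292 and 838 genes, against 1054 and 1298 after quantile normalization, under which the same count of the 10 genes, 5 and 1, was called). The median log2 change of the 10 genes was 0.48, beside 0.01 over all genes tested. As the 10 genes were chosen with earlier results of these data known, these comparisons with all genes are a description and not a test. In WT Ecc15 none of the 10 was called by the adjusted p, where limma called 0.122% of the 13085 genes tested. At an unadjusted p under 0.05 it was 0 of the 10 too, where 7.28% of all genes passed. The median log2 change of the 10 genes was 0.01 there, beside -0.00 over all genes. The authors' deposited table, from their own test, called the same 6 genes in PGRP-LB Ecc15 (9.03% of the genes it lists with an adjusted p were higher and 6.19% lower) and none of the 10 in WT Ecc15 (0.83% and 0.113%). Every log2 change given here is a difference of log2(normalized count + 1), and every adjusted p, unless it is said to be the authors', is from limma with Benjamini-Hochberg adjustment over all genes of the table.

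**Figure D1:**
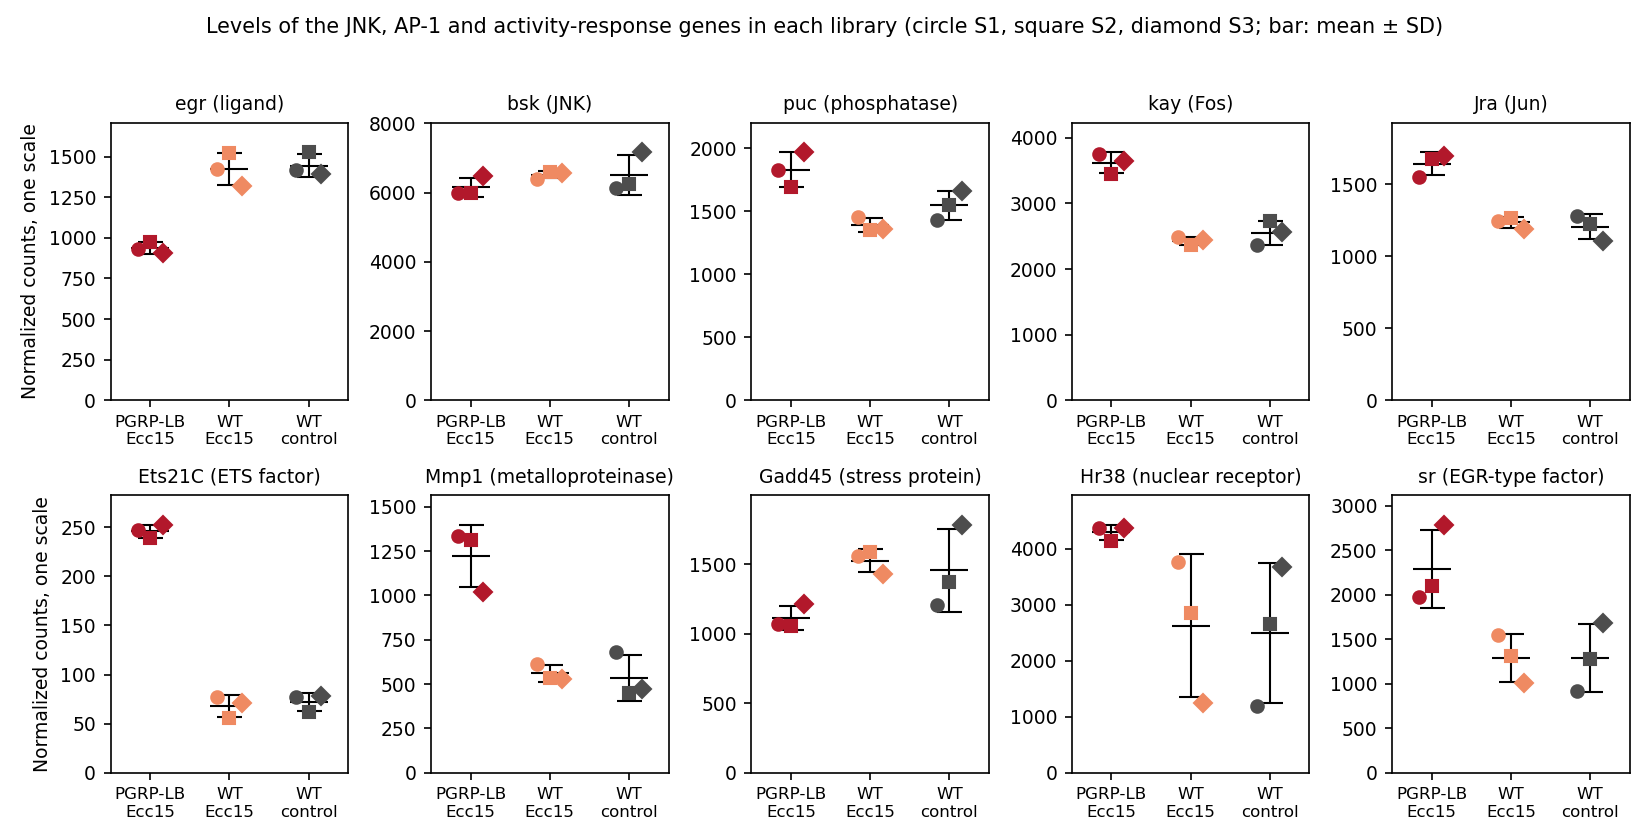
Normalized counts on one scale (vertical axes, linear and starting at 0) of each gene in the PGRP-LB Ecc15, WT Ecc15 and WT control libraries, with the mean ± SD of 3 libraries as bars and a marker shape per column mark. Ets21C stood at 239 to 252 in PGRP-LB Ecc15, above all WT Ecc15 and WT control libraries, egr stood below all of them, and Hr38 was widely spread in both wild-type groups.

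The ligand egr (Eiger, the TNF of flies; chromosome 2R, 10078366 to 10084210, plus strand, BDGP6) was the 1 gene of the set that fell. It had 932, 977 and 906 normalized counts in the PGRP-LB Ecc15 libraries, against 1415, 1526 and 1392 in the WT control libraries of the same table. All PGRP-LB Ecc15 libraries lay below all controls, and the libraries of each group lay close together. The log2 change was -0.62 (SE 0.07, 95% interval -0.79 to -0.45, limma adjusted p = 0.00185). In the other table egr had 1450, 1546 and 1343 normalized counts in WT Ecc15 and 1434, 1551 and 1421 in WT control. Those groups overlapped, and the log2 change was -0.02 with an interval of -0.19 to 0.15.

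The JNK bsk (basket; chromosome 2L, 10247502 to 10250501, minus strand), the kinase on which the pathway converges, showed no detectable change of its RNA. It had 5982, 6000 and 6476 normalized counts in PGRP-LB Ecc15 and 6124, 6237 and 7160 in WT control, groups that overlapped (log2 change -0.08, SE 0.08, limma adjusted p = 0.539). WT Ecc15 libraries held 6507, 6710 and 6672, beside 6205, 6341 and 7310 in WT control, with a log2 change of 0.01 and an interval of -0.16 to 0.17. The activity of the kinase, which depends on phosphorylation, is not measured by RNA sequencing.

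The gene puc (puckered; chromosome 3R, 8105332 to 8122294, plus strand), the JNK phosphatase that is widely used as a reporter of JNK activity, had 1830, 1694 and 1966 normalized counts in PGRP-LB Ecc15, against 1432, 1545 and 1662 in WT control. Every PGRP-LB Ecc15 library stood above every control, but the lowest mutant library and the highest control were close. The log2 change of 0.24 (SE 0.09, interval 0.04 to 0.44) missed the threshold in limma (adjusted p = 0.101), and the authors' deposited table gives an adjusted p of 0.116. In WT Ecc15, puc had 1477, 1377 and 1384 normalized counts, against 1451, 1571 and 1696 in WT control. These groups overlapped, with the WT Ecc15 libraries toward the low end and a log2 change of -0.15 (SE 0.07).

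Both subunits of AP-1 rose in PGRP-LB Ecc15. The Fos gene kay (kayak; chromosome 3R, 29765995 to 29794113, plus strand) had 3760, 3443 and 3651 normalized counts there, against 2365, 2727 and 2563 in WT control. The lowest PGRP-LB Ecc15 library exceeded the highest control by a wide margin, and the log2 change was 0.51 (SE 0.07, limma adjusted p = 0.00519). WT Ecc15 libraries had 2535, 2407 and 2480, beside 2397, 2772 and 2617 in WT control, and these overlapped (log2 change -0.07, interval -0.22 to 0.09).

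The Jun gene Jra (chromosome 2R, 10096480 to 10098556, plus strand) had 1555, 1679 and 1700 normalized counts in PGRP-LB Ecc15 and 1279, 1226 and 1110 in WT control. Again all libraries of the mutant lay above all controls, with a log2 change of 0.45 (SE 0.08, limma adjusted p = 0.0105). WT Ecc15 libraries stood at 1269, 1287 and 1214, among the WT control values of 1296, 1246 and 1134 (log2 change 0.04, interval -0.13 to 0.20). Jra and egr are neighbours on chromosome arm 2R, 12269 bases apart on the plus strand in the BDGP6 annotation, yet Jra rose and egr fell.

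Ets21C, a transcription factor of the ETS family that is induced by JNK in damaged and infected fly tissues, had the largest log2 change of the set and the lowest level per length. It had 247, 239 and 252 normalized counts in PGRP-LB Ecc15, against 77, 62 and 78 in WT control. The PGRP-LB Ecc15 libraries differed little among themselves and all lay far above the controls. The log2 change was 1.76 (SE 0.16, interval 1.38 to 2.14, limma adjusted p = 0.000753). In WT Ecc15 it had 79, 57 and 72, against 78, 63 and 80 in WT control. The WT groups overlapped, and the log2 change was -0.09 with an interval of -0.61 to 0.43. Ets21C lies at 544925 to 552923 on the minus strand of chromosome 2L (BDGP6), where 28.3% of its exon bases are shared with nAChRbeta3 on the opposite strand. That gene was listed at 0 in all 9 libraries. Whether the authors counted by strand is not stated in the sources used here, and the effect of the shared bases on the Ets21C values was not tested.

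Of the effector genes, Mmp1 (chromosome 2R, 24671294 to 24688184, minus strand) rose. Mmp1 encodes a matrix metalloproteinase, an enzyme that cuts extracellular matrix and is known in flies as a JNK target in wounds and tumours. It had 1334, 1312 and 1018 normalized counts in PGRP-LB Ecc15, against 682, 451 and 472 in WT control. The groups stood well apart, with PGRP-LB Ecc15 S3 the lowest of the mutant and WT control S1 the highest of the controls. The log2 change was 1.20 (SE 0.18, interval 0.77 to 1.63, limma adjusted p = 0.00628). In WT Ecc15 Mmp1 had 626, 545 and 539 normalized counts, within the WT control values of 691, 459 and 482 (log2 change 0.09, interval -0.29 to 0.47).

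Gadd45 (chromosome 2R, 7249161 to 7250655, plus strand), the single fly member of a family of stress and DNA damage response proteins, was not called. It had 1066, 1057 and 1213 normalized counts in PGRP-LB Ecc15 and 1207, 1372 and 1782 in WT control. The groups overlapped narrowly, since the highest PGRP-LB Ecc15 library passed only WT control S1. The log2 change was -0.37 (SE 0.14, interval -0.71 to -0.03, limma adjusted p = 0.132), and the authors' deposited table gives an adjusted p of 0.0834. It was -0.21 without WT control S3, and without 1 library it ran from -0.49 to -0.21, never called. WT Ecc15 libraries had 1581, 1616 and 1454, beside 1223, 1395 and 1820 in WT control, and overlapped with them (log2 change 0.09).

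The activity-response gene Hr38 (chromosome 2L, 20683462 to 20714588, minus strand), a nuclear receptor, had 4373, 4145 and 4376 normalized counts in PGRP-LB Ecc15, against 1187, 2651 and 3669 in WT control. The mutant libraries were uniform and all above the controls, which were spread from 1187 to 3669. With that spread the log2 change of 0.93 (SE 0.37, interval 0.06 to 1.79) was not called by limma (adjusted p = 0.135), and the authors' deposited table gives an adjusted p of 0.292. The log2 change was 0.46 without WT control S1 and 1.28 without WT control S3, and was not called in either. WT Ecc15 libraries were as scattered as the controls, with 3835, 2910 and 1273 in WT Ecc15 and 1203, 2695 and 3746 in WT control. Their log2 change of 0.08 had an interval of -1.11 to 1.26, so a change of Hr38 by 1 log2 unit in either direction would not have been detectable in WT Ecc15.

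The gene sr (stripe; chromosome 3R, 18090803 to 18135583, plus strand), the fly EGR-type zinc finger factor, which also specifies tendon cells where muscles attach, had 1975, 2099 and 2787 normalized counts in PGRP-LB Ecc15, against 919, 1276 and 1686 in WT control. All PGRP-LB Ecc15 libraries exceeded all controls. The log2 change of 0.85 (SE 0.23, interval 0.31 to 1.39) lay just inside the limma threshold (adjusted p = 0.0475). Leaving out WT control S1 or S2, or any 1 PGRP-LB Ecc15 library, ended the call, with log2 changes of 0.62 (S1) and 0.86 (S2) without a control and of 0.95, 0.90 and 0.70 without PGRP-LB Ecc15 S1, S2 or S3. In WT Ecc15 sr had 1578, 1331 and 1028 normalized counts, within the WT control values of 932, 1298 and 1721 (log2 change 0.02).

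**Figure D2:**
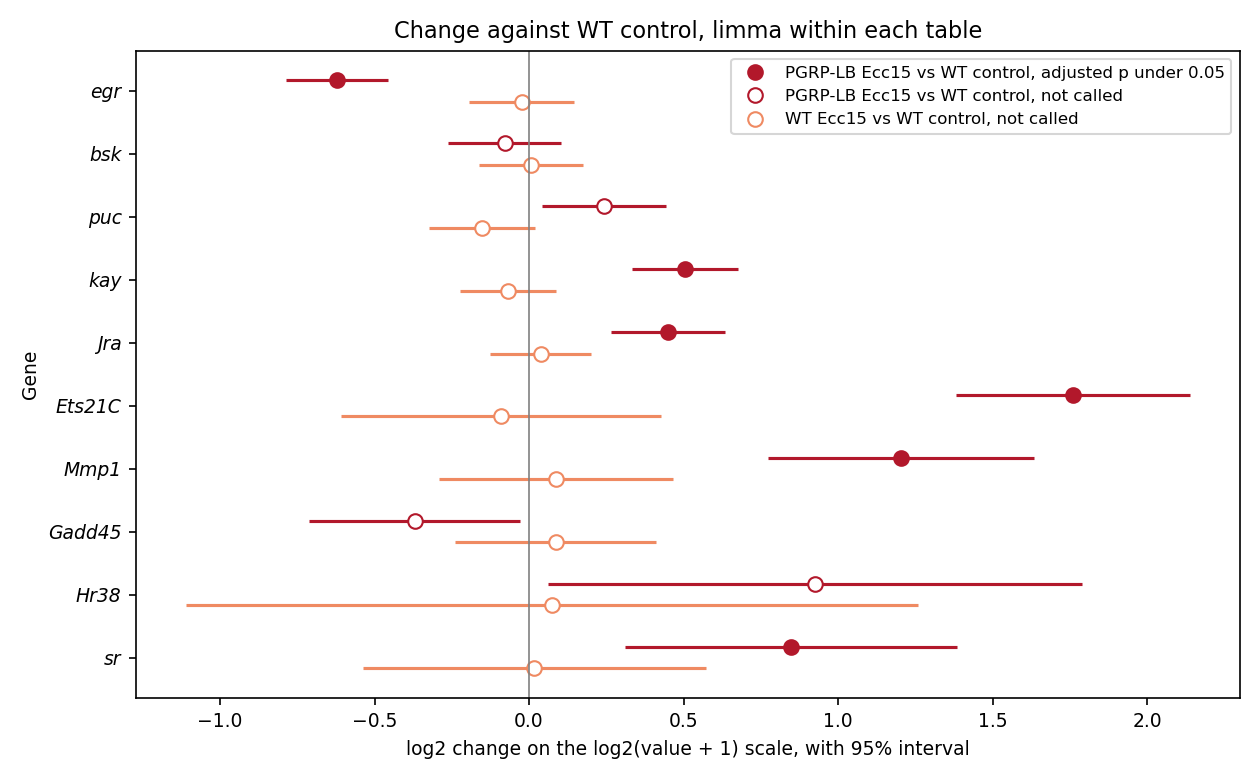
Log2 change of each gene against WT control on the log2(normalized count + 1) scale (horizontal axis), with the 95% interval of limma as a line, for PGRP-LB Ecc15 (dark red) and WT Ecc15 (orange), filled where the adjusted p was under 0.05. In PGRP-LB Ecc15 the changes run from -0.62 (egr) to 1.76 (Ets21C), and every interval of WT Ecc15 includes 0.

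Counted by library, 7 of the 10 genes lay higher in all PGRP-LB Ecc15 libraries than in all WT controls and 1 lay lower, where the same held for 18.8% and 16.9% of all genes. In WT Ecc15 none of the 10 stood apart from WT control in either direction, where 12.6% of all genes did (6.93% higher, 5.67% lower).

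The 2 infected groups were then set side by side after the WT Ecc15 libraries had been brought to the scale of the other table through the WT control libraries that both tables hold. On that scale 7 of the 10 genes (Ets21C, puc, kay, Jra, Mmp1, Hr38 and sr) were higher in every PGRP-LB Ecc15 library than in every WT Ecc15 library, and egr and Gadd45 were lower, while bsk overlapped. Over all genes, 39.3% stood apart, 20.8% as higher and 18.4% as lower. The ratio of the group means, PGRP-LB Ecc15 over WT Ecc15, was 3.61 for Ets21C, 2.18 for Mmp1, 1.77 for sr, 1.64 for Hr38, 1.49 for kay, 1.33 for Jra and 1.32 for puc. It was 0.944 for bsk, 0.729 for Gadd45 and 0.660 for egr. The difference between the infected groups was not tested, because the tables were scaled separately and share their controls.

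Levels can be compared between genes only per length, here normalized counts per kilobase of annotated exon. The exons of all annotated transcripts of a gene were merged for this length, which ran from 1495 bases (Gadd45) to 8113 bases (sr). Which transcripts were present was not tested, and the order of the genes depends on these lengths. In PGRP-LB Ecc15 brains bsk was the most abundant with a mean of 3049 per kb, followed by Jra (1002), Gadd45 (744), puc (577), Hr38 (558), kay (465), egr (433), sr (282), Mmp1 (252) and Ets21C (45.5). In WT control brains the order was bsk (3224), Gadd45 (972), Jra (734), egr (667), puc (488), kay (328), Hr38 (325), sr (159), Mmp1 (111) and Ets21C (13.4). The ligand egr stood below puc and Hr38 in PGRP-LB Ecc15 and above them in WT control. In PGRP-LB Ecc15 the ranges of egr and kay overlapped (418 to 451 and 442 to 483 per kb), as did those of puc and Hr38 and of sr and Mmp1. In WT control the ranges of Jra and egr overlapped (676 to 779 and 643 to 705 per kb), as did those of sr and Mmp1 (113 to 208 and 93.2 to 141), and that of Hr38 (154 to 476) overlapped those of puc, kay and sr. bsk and Ets21C stood outside the range of every other gene.

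Of the 10 genes Hr38 and sr were the most spread out within the wild-type groups. The highest library of a group exceeded the lowest by a ratio of 1.06 for Hr38 in PGRP-LB Ecc15, of 3.01 in WT Ecc15 and of 3.09 in WT control. Over the 8234 genes with a mean of at least 100, the median ratio was 1.14 in PGRP-LB Ecc15, 1.11 in WT Ecc15 and 1.18 in WT control. Of these genes 88.0% had a larger ratio than Hr38 in PGRP-LB Ecc15, but 2.55% in WT Ecc15 and 3.15% in WT control. For sr the ratio was 1.41 in PGRP-LB Ecc15, 1.54 in WT Ecc15 and 1.83 in WT control.

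The wild-type libraries also fell into the same order for both genes. In WT Ecc15 S3 was lowest and S1 highest, and in WT control S1 was lowest and S3 highest, for Hr38 and for sr. Both orders together were seen in 465 of the 8234 genes (5.65%), in 3 of 18 further genes of neuronal activity (CG14186, CG8910 and Mef2) and in 3 of 22 further genes of JNK signalling (hep, msn and slpr). They were seen in 0 of 16 targets of JNK and AP-1, 0 of 12 neuronal markers and 1 of 12 glial markers (Gat). Of the haemocyte, fat body, muscle and photoreceptor markers given below, 0 had both orders. This order was singled out after the values were seen, the column marks S1 to S3 carry no order of their own, and what differs between these pools was not tested.

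**Figure D3:**
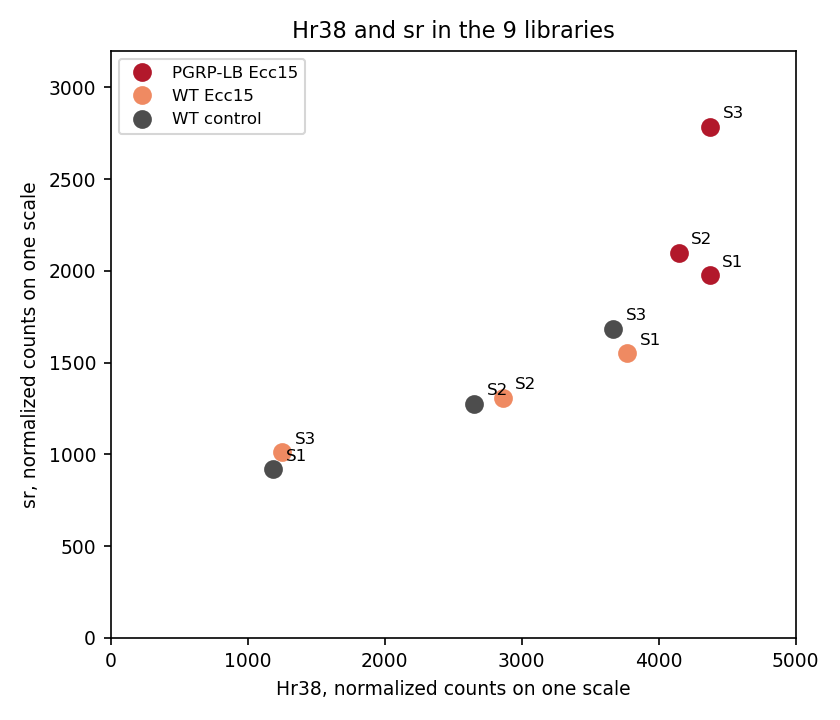
Normalized counts of Hr38 (horizontal axis) and sr (vertical axis) on one scale, linear axes, 1 point per library, with its column mark beside it. The 3 PGRP-LB Ecc15 libraries lie beyond the 6 wild-type libraries on both axes, and the wild-type libraries spread up to WT Ecc15 S1 (3771 and 1552) and WT control S3 (3669 and 1686).

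Other components of JNK signalling were described with a list of 24 genes of receptors, adaptors, kinases and regulators. In PGRP-LB Ecc15 5 of the 24 rose and 1 fell (9.65% and 6.26% of all genes), and the median log2 change was 0.07, beside 0.01 for all genes. The 5 higher calls were 2 without WT control S2, PGRP-LB Ecc15 S1 or PGRP-LB Ecc15 S3 and 3 without PGRP-LB Ecc15 S2, and the lower calls were 2 without WT control S3. After quantile normalization 3 rose and 3 fell. Rac2, a small GTPase, had 1450, 1570 and 1405 normalized counts in PGRP-LB Ecc15 against 767, 772 and 721 in WT control. It rose 1.96-fold (log2 change 0.97, SE 0.07, limma adjusted p = 0.000351), with the groups far apart. The gene raw, which restrains JNK signalling, averaged 3048 ± 250 in PGRP-LB Ecc15 and 2137 ± 109 in WT control (SD, n = 3 each, log2 change 0.51).

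Of the kinases upstream of bsk, Ask1, a MAP kinase kinase kinase, rose by a log2 change of 0.32, and msn (misshapen), a kinase further upstream, by 0.31. The MAP kinase kinases hep and Mkk4 and the kinases Tak1, slpr and wnd above them were not called, with log2 changes of -0.02 (Mkk4) to 0.15 (hep). Ask1 lost its call without WT control S2 (0.30) or without PGRP-LB Ecc15 S1 (0.31) or S3 (0.30), and msn without WT control S1 (0.24), without WT control S2 (0.30), or without PGRP-LB Ecc15 S1 (0.30), S2 (0.31) or S3 (0.32). The tyrosine kinase Btk29A fell (log2 change -0.42, SE 0.07, limma adjusted p = 0.00743), with means of 1051 ± 34.0 in PGRP-LB Ecc15 and 1410 ± 59.6 in WT control. Of the receptors of egr, looked up for their role after the values were seen, grnd had 146, 202 and 113 normalized counts in PGRP-LB Ecc15 against 70, 53 and 18 in WT control (limma adjusted p = 0.0487), and wgn had 951, 920 and 977 against 898, 979 and 921 (adjusted p = 0.841). So grnd stood apart and rose, and wgn overlapped. The call of grnd was lost without WT control S2 (2.03) or without PGRP-LB Ecc15 S1 (1.86), S2 (1.63) or S3 (2.05), beside a log2 change of 1.85 with all libraries. It was also lost with no filter, after quantile normalization, without trend and with robust limma (limma adjusted p = 0.0545, 0.0593, 0.101 and 0.0502).

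Among 22 further genes known as targets of JNK and AP-1 or as damage response genes, 21 could be tested and Hsp22 was listed at 0. In PGRP-LB Ecc15 6 of the 21 rose and 0 fell (9.65% and 6.26% of all genes), with a median log2 change of 0.28. The higher calls were 4 without WT control S1, PGRP-LB Ecc15 S1 or PGRP-LB Ecc15 S2. The cytokine gene upd3, which signals to the JAK-STAT pathway, had 22, 43 and 41 normalized counts in PGRP-LB Ecc15 against 0, 1 and 0 in WT control (limma adjusted p = 0.00118), so it was near 0 in the controls. The filamin gene cher, an actin crosslinker, rose 2.97-fold, with means of 2610 ± 172 in PGRP-LB Ecc15 and 901 ± 253 in WT control (SD, n = 3 each). The stress-induced bZIP factor Xrp1 rose by a log2 change of 0.67 (SE 0.10, limma adjusted p = 0.00653) and the bZIP factor Atf3 by 0.60 (SE 0.10, limma adjusted p = 0.00877). The cell death genes rpr and hid were not called, with log2 changes of 0.08 and 0.32.

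Of the 18 further genes tied to neuronal activity, 5 rose and 0 fell in PGRP-LB Ecc15 (9.65% and 6.26% of all genes). Their median log2 change was 0.13. The higher calls were 3 without WT control S2 or PGRP-LB Ecc15 S3 and 2 without PGRP-LB Ecc15 S1. Arc1, which encodes a capsid-forming protein related to mammalian Arc, had 6159, 4530 and 4060 normalized counts in PGRP-LB Ecc15 against 1202, 750 and 581 in WT control, 6.00-fold higher (limma adjusted p = 0.00134) and with groups far apart. Its neighbour and paralog Arc2 averaged 332 ± 39.2 in PGRP-LB Ecc15 and 118 ± 41.2 in WT control (SD, n = 3 each), a log2 change of 1.54. As the copies are similar, reads may be split between them. CrebA, a bZIP factor known for its control of secretory pathway genes, rose by a log2 change of 1.04 (0.94 and not called without WT control S2, 1.10 and not called without PGRP-LB Ecc15 S1). CG14186 rose by 0.53, with the call lost without WT control S2 (0.52) or without PGRP-LB Ecc15 S1 (0.54) or S3 (0.46). The kinase gene CaMKII and the coactivator gene Crtc were not called, with log2 changes of -0.08 and -0.05.

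In WT Ecc15 0 genes of the 3 lists were called by limma, where 0.122% of all genes were. At an unadjusted p under 0.05, 1 of 24 (Rac2), 2 of 21 (upd2 and upd3) and 0 of 18 were higher, beside 4.75% of all genes, and the authors' deposited table called 1 (Rac2, adjusted p = 0.0106), 0 and 0. For Rac2 limma gave a log2 change of 0.36 in WT Ecc15 (adjusted p = 0.159). The median log2 changes were 0.02 for JNK signalling, 0.04 for targets and 0.05 for activity genes. The cytokine upd3 had 7, 5 and 4 normalized counts in WT Ecc15 against 0, 1 and 0 in WT control, low values whose difference was not called (limma adjusted p = 0.328). Arc1 had 1381, 1228 and 883 in WT Ecc15 beside 1218, 763 and 593 in WT control, and these overlapped.

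**Figure D4:**
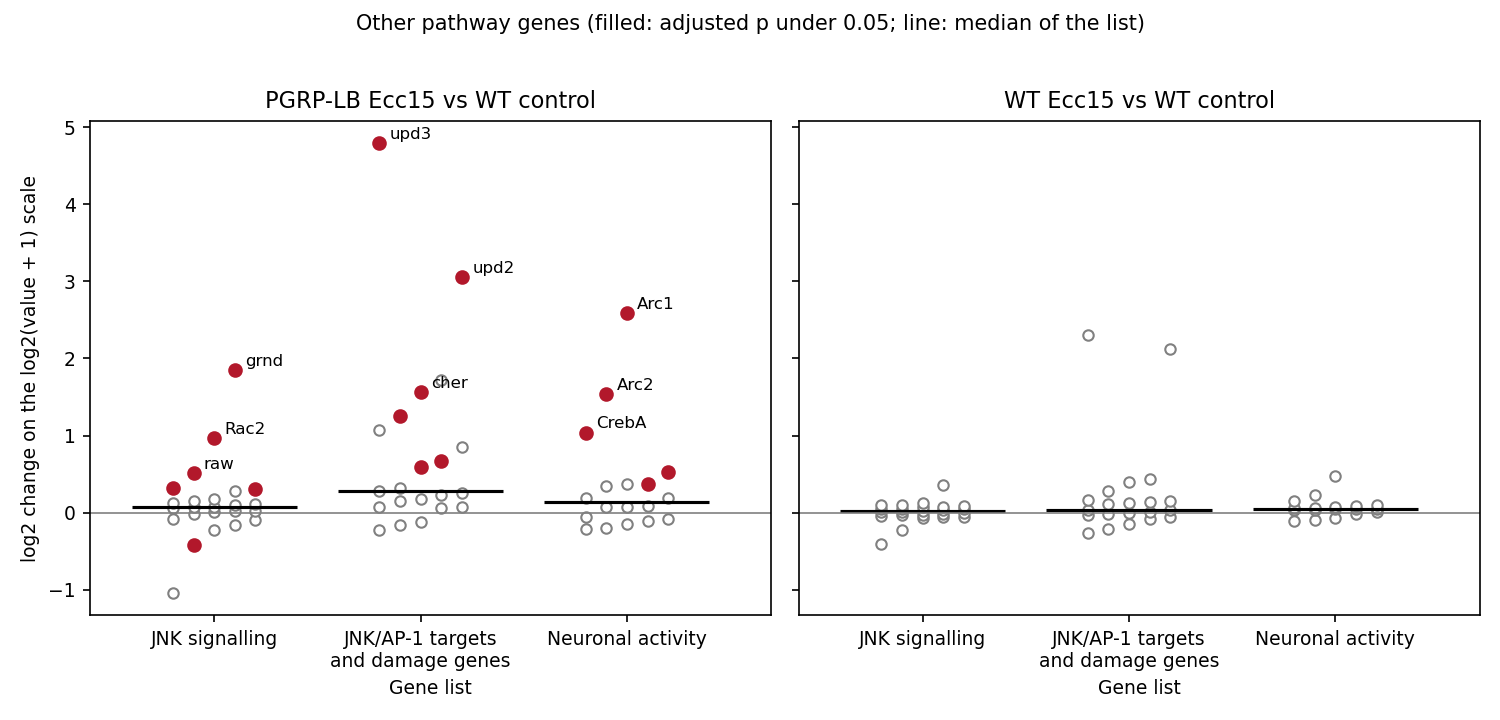
Log2 change against WT control on the log2(normalized count + 1) scale (vertical axis, 1 point per gene) for the 3 gene lists in PGRP-LB Ecc15 (left) and WT Ecc15 (right), filled where the limma adjusted p was under 0.05, with the list median as a line. In PGRP-LB Ecc15 the medians are 0.07, 0.28 and 0.13 and Arc1, upd3 and Rac2 are among the filled points, while no point is filled in WT Ecc15.

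Markers of tissues that a dissected brain can carry were summed per library, as were those of neurons and glia. The sums of muscle, glial and haemocyte markers in PGRP-LB Ecc15 stood apart from those in WT Ecc15 and in WT control. The sums of fat body and photoreceptor markers overlapped with those in WT Ecc15 and in WT control. The summed level of 12 muscle markers was 26940 to 44028 in PGRP-LB Ecc15 libraries, 8901 to 15316 in WT Ecc15 libraries and 9010 to 21114 in WT control libraries, with none at 0. In PGRP-LB Ecc15 limma called 2 of the 12 as higher than WT control (sls and Mlp84B) and 0 as lower, beside 9.65% and 6.26% of all genes. Neither was called without WT control S1 or any 1 PGRP-LB Ecc15 library, with log2 changes then of 1.86 to 2.19 and 1.85 to 2.29. The list's median log2 change was 1.31, close to that of Mmp1 and above that of sr, and 10 of the 12 changes were above 0. In the authors' deposited table TpnC4 and Act88F had fold changes of 0.411 and 0.311, neither called (adjusted p = 0.159 and 0.555). The summed level of 12 glial markers was 129815 to 139299 in PGRP-LB Ecc15 libraries, 157808 to 160450 in WT Ecc15 libraries and 158999 to 173804 in WT control libraries, where 5 of the 12 fell (3 without WT control S2, PGRP-LB Ecc15 S1 or S2) and 1 rose in PGRP-LB Ecc15. The 12 haemocyte markers summed to 26043 to 36294 in PGRP-LB Ecc15 libraries, 52036 to 65475 in WT Ecc15 libraries and 41124 to 48426 in WT control libraries (2 fell in PGRP-LB Ecc15, 1 without any 1 WT control library and 4 without PGRP-LB Ecc15 S2). Neuronal markers overlapped between PGRP-LB Ecc15 (303567 to 320324) and WT control (296625 to 343685), with 1 higher (0 without any 1 library) and 1 lower of 12. In the WT Ecc15 libraries they summed to 327943 to 343251, above all PGRP-LB Ecc15 libraries. Of the 12, 4 (nSyb, VAChT, fne and Csp) were lower in every PGRP-LB Ecc15 than in every WT Ecc15 library and 0 were higher, beside 18.4% and 20.8% of all genes. By the same count 1 of 12 muscle markers was lower and 9 were higher. Of the glial markers 7 were lower and 2 higher, and of the haemocyte markers 6 were lower and 1 higher. For fat body it was 1 lower and 3 higher, and for photoreceptors 1 lower and 1 higher. Fat body markers (2 of 12 higher in PGRP-LB Ecc15, and 1 without any 1 PGRP-LB Ecc15 library or WT control S1 or S3) and photoreceptor markers (0 of 12 called) spread widely within groups, from 95397 to 545451 and from 41794 to 166245 in PGRP-LB Ecc15 and from 106072 to 258914 and from 67783 to 373034 in WT control. In WT Ecc15 0 markers of the 6 lists were called by limma, where at an unadjusted p under 0.05 6 haemocyte, 5 fat body, 2 neuronal and 1 glial marker of 12 or 11 tested per list were higher (4.75% of all genes higher, 2.54% lower), and the authors' deposited table called 5 haemocyte and 2 fat body markers. The part of these tissues in the changes of the 10 genes was not tested.

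Genes next to the 10 on the chromosome were counted too. Within 100 kb, 3 of the 25 tested neighbours of Ets21C were called in PGRP-LB Ecc15, as were 3 of 41 around Mmp1, 9 of 50 around kay, 4 of 24 around sr, 5 of 34 around Jra and 5 of 35 around egr, beside 15.9% of all genes. The counts around Jra and egr are not separate, since these genes lie 12269 bases apart. CG34220, gem, dmpd and Def were called around both, and Jra and egr were each counted as a neighbour of the other. None of 36 neighbours of Hr38 were called. Exon bases shared with a gene on the opposite strand made up 5.87% of Mmp1 (Pof), 2.38% of Jra (RpLP0-like) and 2.18% of Hr38 (CG2617), and none were shared in the other genes apart from Ets21C. Those partners had means of 750 (Pof), 420 (RpLP0-like) and 50.7 (CG2617) normalized counts in PGRP-LB Ecc15 and of 766, 419 and 84.3 in WT control, and whether the authors counted by strand is not stated in the sources used here.

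For the 2 called genes of the set with a log2 change of at least 1, the genes with the most similar pattern over the 9 libraries were looked up among 10345 genes, as those with the smallest root mean square difference in log2 level relative to the WT control mean. For Ets21C these were grk, insv and mRpS28, with differences of 0.17, 0.18 and 0.20. For Mmp1 they were Tre1, lbm and aay, with differences of 0.12, 0.14 and 0.16. Tre1 averaged 207 normalized counts in PGRP-LB Ecc15, 98.3 in WT Ecc15 and 87.7 in WT control.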

How the data were processed

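Brain RNA of 9 pools was sequenced in 1 lane with 100-base paired reads, from 250 ng RNA in stranded poly(A) libraries, per the labels' protocols. Per the submitters' processing notes the authors used DESeq2, featureCounts, HTSeq and HISAT2 (version 2). The build, the annotation and whether counting was by strand are not stated in the sources used here. The deposited value of each gene and library is a score: a whole number, but the same controls differ between the 2 tables by a median ratio of 1.013, 1.017 and 1.021, so the values were taken as counts that the authors normalized and rounded within each table. The authors' deposited fold change, log2 change and p-value columns were used only where named. The normalized values of a library added up to between 25.3 and 27.8 M (M, mega). Read depth was estimated from gaps in the low values. The files are 12 in number, and the full table of each infected group (2 in all) was used, since the others repeat or subset these. Column marks S1 to S3 could not be matched to title numbers, so groups come from the column names.

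Within each table limma-trend (limma 3.58.1, R 4.3.3) was run with a pseudocount of 1 before the log2, on genes whose mean reached 1, two-sided, threshold 0.05, and was tested on simulated data. A count model had been planned only for raw counts and was not run. The smallest p of an exact permutation test of 3 libraries per group is 0.1, and none was run. Levels across tables were joined by the ratio of the shared control libraries. The 10 genes, the lists and the naming rule (per list, up to 4 higher and 4 lower with the smallest adjusted p) were chosen with earlier results of these data known. Symbols and exons are from BDGP6, which held 16839 of the gene IDs.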

Additional observations from a re-analysis of the deposited data

Results flagged for a closer look

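For puc and kay, every PGRP-LB Ecc15 library lay above the WT control mean of its table and every WT Ecc15 library lay below it. The log2 change in PGRP-LB Ecc15 minus that in WT Ecc15 was 0.40 for puc and 0.57 for kay. This difference was not tested, since the tables were scaled separately and share their controls. In WT Ecc15 neither gene was called by limma and both overlapped with WT control.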

How the results depend on the processing

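The alternatives were a pseudocount of 4, a mean of at least 10, no filter, quantile normalization, limma without trend, robust limma, and leaving out each library. Across all 12, egr, kay, Jra, Ets21C and Mmp1 kept their call in PGRP-LB Ecc15, and puc, Gadd45, Hr38 and bsk were never called. The call of sr held in 4 of 12 (adjusted p up to 0.151, from limma), and was lost with no filter, without trend, with robust limma and without 5 of the 6 libraries. Without 1 library, 4 to 5 of the 10 genes were higher and 1 lower. Over all genes, calls in PGRP-LB Ecc15 were 742 to 1059 higher and 387 to 673 lower without 1 library, against 1292 and 838; lower calls were 519 without trend and 1298 after quantile normalization, which moved the median of all genes by -0.13 and made 44.8% of calls higher in place of 60.7%. Relative to the median log2 change of all genes after quantile normalization (-0.092), Ets21C changed by 1.55, Mmp1 by 1.24, sr by 0.90, kay by 0.56, Jra by 0.48 and egr by -0.59. Of the JNK signalling list 3 were higher with no filter, 3 (and 3 lower) after quantile normalization and 2 without trend, and 2 were lower with a mean of at least 10; of the activity list 3 were higher without trend. Of the markers, without trend 0 muscle, 0 neuronal and 1 fat body marker were higher and 1 haemocyte marker lower; after quantile normalization 0 neuronal markers were higher and 4 haemocyte markers lower; with robust limma 0 muscle markers, and with a mean of at least 10 1 fat body marker, were higher. In WT Ecc15 16 genes were higher, 0 without trend and 0 to 19 without 1 library (0 without WT control S1, WT Ecc15 S1 or WT Ecc15 S2, and 6 without WT control S2). Uncalled log2 changes in WT Ecc15 crossed 0: bsk was -0.034 after quantile normalization, and without 1 library the ranges were -0.038 to 0.080 for bsk, -0.20 to 0.041 for Ets21C, -0.017 to 0.080 for Jra, -0.073 to 0.029 for egr, -0.021 to 0.27 for Mmp1, -0.041 to 0.25 for Gadd45, -0.39 to 0.54 for Hr38 and -0.21 to 0.23 for sr. The cause was not tested. No paired analysis was possible because the groups share fewer than 2 replicate numbers and the column marks match no title number. With 3 libraries a group, low genes such as upd3 and scattered ones such as Hr38 are the least precise.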
